A study of Homo sapiens with 3 samples.

Results

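Histone genes encode the proteins that package DNA, and their transcripts were followed here in PC3-Luc prostate cancer cells with lowered CTHRC1. The members were the protein-coding genes of the deposited count table whose symbols begin as those of linker histone H1, the core histones H2A, H2B, H3 and H4, and macroH2A. This rule selected 55 of the 21726 genes listed, or of 14123 protein-coding ones. By their symbols 41 were classed as replication-dependent genes, which supply most histone during DNA synthesis. The other 14 were classed as replacement or variant genes, a group set by symbol alone. Of these, H2AW, H2AX, H2BU1 and H4-16 carry the stem-loop described below.

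In dividing cells the replication-dependent genes are switched on in S phase. Their messenger RNAs are known for lacking introns and usually a poly(A) tail: they end just after a short stem-loop that the stem-loop binding protein SLBP recognises, and they are degraded when DNA synthesis stops. Replacement genes such as H3-3B have introns and polyadenylated transcripts and are read throughout the cell cycle, and several replication-dependent genes are known to make polyadenylated forms as well.

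PC3 is an established androgen-independent prostate adenocarcinoma line taken from a bone metastasis. All lines carried luciferase from pMSCV-luc. The sh718 and sh720 lines each had a short hairpin against CTHRC1, a secreted glycoprotein, and the shCtrl line had a control hairpin; neither the hairpin vectors nor whether a line is 1 clone or a pool was stated in the labels. The comparisons ask how lowered CTHRC1 alters gene expression, and whether the hairpins do so alike. Cells grew for 24 h in 6-well plates before total RNA was taken, and single reads of 75 bases were sequenced, with 3 libraries for each line.

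Library totals ran from 883663 to 1108960 counts, and histone genes held 0.454% to 0.635% of them. CTHRC1 had 2.36, 2.02 and 1.06 CPM (counts relative to the library's total, with TMM scaling) in sh718, 18.5, 19.8 and 9.70 CPM in sh720 and 99.1, 132 and 117 CPM in shCtrl. It was lower in both hairpin lines, by a log2 change of -5.91 in sh718 (SE 0.31, adjusted p 1.17e-25) and of -2.86 in sh720 (SE 0.19, adjusted p 1.19e-19). All 6 markers listed for an epithelial carcinoma line were detected in every line. The defining leukocyte, neuroendocrine, fibroblast and osteoblast markers stayed at or below 2.05 CPM in any library. The 6 carcinoma line markers include the mesenchymal gene VIM, so they do not measure an epithelial state. Of them, KRT7 and EPCAM were lower in sh718 than in shCtrl, by log2 changes of -2.57 and -1.39 (adjusted p 7.42e-28 and 2.41e-05). In sh720 against shCtrl 4 of the 6 were called higher and 0 lower: KRT7 by 0.75 (adjusted p 1.62e-10), KRT8 by 0.46 (7.07e-04), VIM by 0.31 (9.76e-05) and KRT18 by 0.22 (0.0316). The endothelial marker PECAM1 had 46.6 to 51.4 CPM in sh718, 13.4 to 31.2 CPM in sh720 and 21.4 to 25.9 CPM in shCtrl, and the part of these markers in the results was not tested. All adjusted p-values are from edgeR's quasi-likelihood test with Benjamini-Hochberg adjustment over the 9556 genes tested, unless DESeq2 is named, and the word called refers to a value of it under 0.05. In bulk RNA, fewer cells in S phase and less histone RNA per cell cannot be told apart.

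Of the 55 members, 22 had enough counts for a test, 11 replication-dependent and 11 replacement genes. The 33 untested members had 1 to 56 counts over all libraries, 441 together, or 0.953% of the members' 46298 counts. None of the 8 replication-dependent H3 genes reached the minimum, and they held 90 counts together. The members nearest to the minimum were H2BC21 and H2BC11 above it, with 86 and 88 counts, and H2BC12 and H2AC14 below it, with 56 and 42 counts. H3-3B, 1 of the genes for replacement histone H3.3, held 30.7% of the members' counts and the replication-dependent gene H4C3 held 13.3%, and the 12 most counted members held 91.1%. Per kilobase of the longest annotated transcript the order changed: H4C3 had a mean level of 1637 CPM per kilobase, H3-3B 593, H2AC20 557, H1-2 527 and H1-3 282 CPM per kilobase. As many as 34 members lie on chromosome 6 and 10 on chromosome 1, where the histone gene clusters are.

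The stem-loop is the sequence that sets these transcripts apart, so it is shown for members that the results turn on. It was searched as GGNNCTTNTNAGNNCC on the sense strand of the longest GENCODE v29 transcript (GRCh38), and the arms, which pair with each other, are in capitals.
H2AC6: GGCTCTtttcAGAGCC
H2BC21: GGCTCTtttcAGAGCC
H4C8: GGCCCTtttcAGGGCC
H2AX: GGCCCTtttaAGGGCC
H2AW: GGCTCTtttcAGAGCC
The letters of the stem-loop occur in 18 of the 39 replication-dependent members found in that annotation, and in 54 of 14063 other protein-coding genes of the table (0.384%). They also occur in 4 of the 14 members classed as replacement by symbol alone (H2AW, H2AX, H2BU1 and H4-16). Whether those 4 belong with the replication-dependent genes was not examined. The annotated transcripts of the tested genes H1-2, H1-3, H1-4, H4C3, H2AC20, H2BC4, H2BC5 and H2BC11 hold none, which says only that these letters are not within the annotated ends. In 15 of the 18, the transcript runs over 50 bases past the stem-loop, 1128 bases past it in H2AC6 and 1655 in H4C8.

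The members' calls are given beside those of all tested genes. In sh718 against shCtrl 6 of 22 members were called higher and 4 lower, where 20.4% of all tested genes were called (9.56% higher and 10.8% lower). In sh720 against shCtrl 5 were called higher and 1 lower, where 6.85% of all tested genes were called (3.43% higher and 3.42% lower). Between the hairpin lines, 6 members were called higher and 6 lower in sh718 against sh720, where 25.3% of all tested genes were called (12.3% higher and 13.0% lower). These shares include 4 genes, described below, whose calls rest on the way the spread was modelled: with DESeq2 3 members were called higher and 3 lower in sh718 against shCtrl, where it called 10.5% of all genes it tested (4.68% higher and 5.86% lower). In sh720 against shCtrl DESeq2 gave an adjusted p to 16 members and 4739 genes, and called 3 of those members higher and 1 lower, against 6.48% of those genes (2.74% and 3.73%). In sh718 against sh720 it called 3 of 22 higher and 1 lower, against 13.5% (6.61% and 6.92%). With edgeR's robust spread the calls were 6 higher and 3 lower in sh718, 3 and 1 in sh720, and 6 and 3 in sh718 against sh720; of all tested genes 20.8% (9.85% and 11%), 7.08% (3.52% and 3.57%) and 25.6% (12.4% and 13.1%) were then called. The members' libraries did not overlap in 11 of 22 members for sh718 against shCtrl, 8 with sh718 above and 3 with it below, where 33.5% of all tested genes did not overlap (16.3% above and 17.1% below). For sh720 against shCtrl they did not overlap in 7, 5 above and 2 below (23.5% of all tested genes, 11.6% and 11.9%), and for sh718 against sh720 in 14, 11 above and 3 below (37.0%, 18.2% and 18.8%). Both comparisons with shCtrl share the same control libraries.

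**Figure D1:**
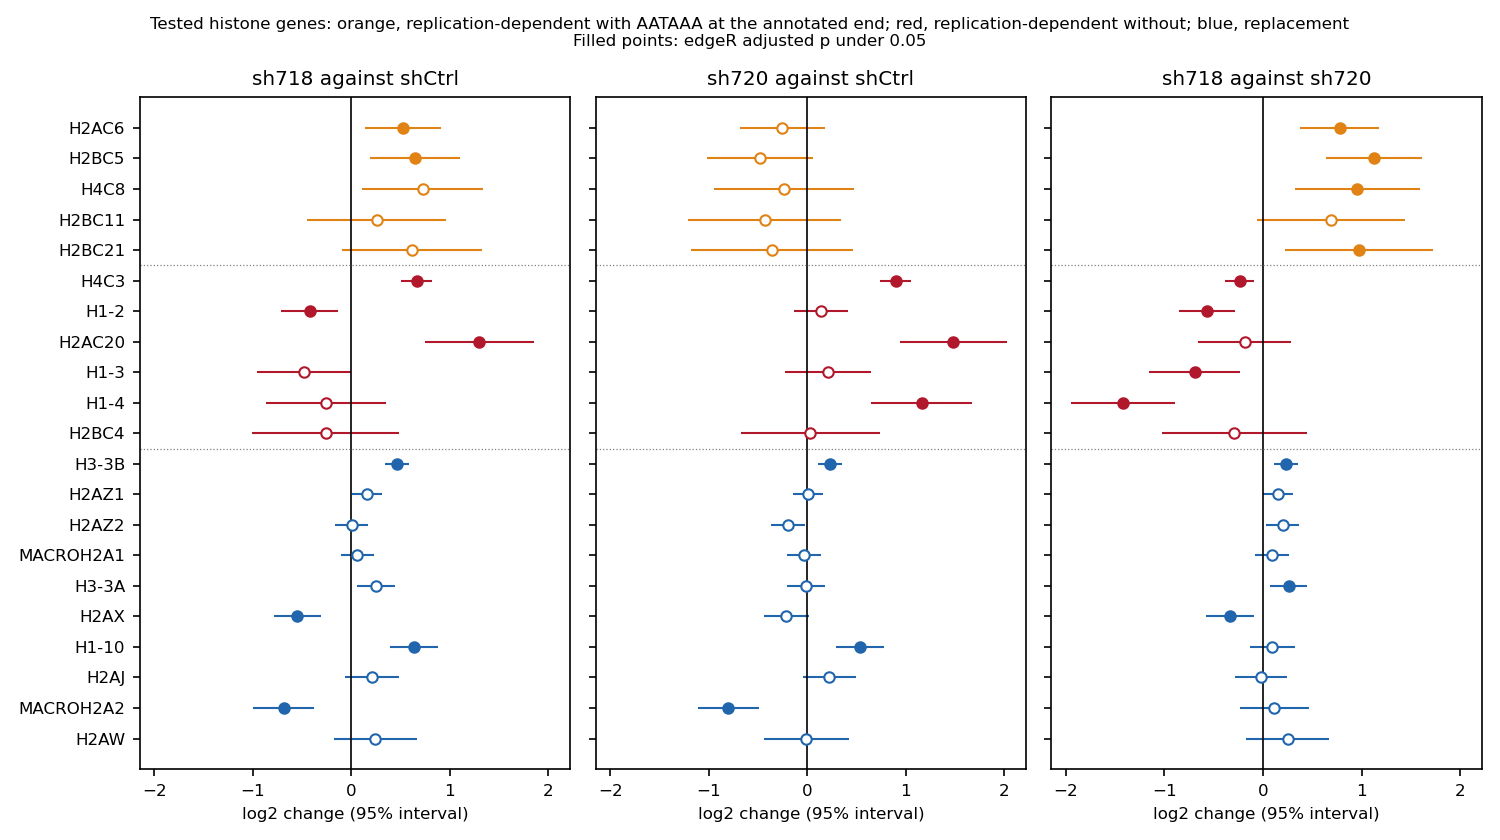
Log2 change with its 95% interval (x axis) for 21 of the 22 tested histone genes (y axis) in the 3 comparisons. Filled points were called by edgeR at an adjusted p under 0.05; the dotted lines part replication-dependent genes with AATAAA at their annotated end, those without, and replacement genes, and in sh718 against sh720 the 5 genes at the top lie above 0 while the 6 in the middle lie below it, of which H1-3 (0.18 without sh720 library 1) and H2AC20 (0.33 without sh718 library 2) turned when 1 library was left out and DESeq2 called 0.

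Among core histone genes of the replication-dependent kind, H4C3 was higher in both hairpin lines. H4C3 (ENSG00000197061, GRCh38 chromosome 6, 26103876 to 26104310, plus strand, a gene of 1 exon) encodes histone H4, which pairs with H3 at the centre of the nucleosome, and its protein is shared by many other H4 genes. It had 715, 815 and 749 CPM in the sh718 libraries, 907, 823 and 953 CPM in the sh720 libraries, and 566, 447 and 433 CPM in the shCtrl libraries. Every hairpin library lay above every control library, and every sh718 library lay below every sh720 library. The means were 759.9 ± 50.8 CPM in sh718, 895 ± 65.7 CPM in sh720 and 482 ± 73.4 CPM in shCtrl (SD, n = 3 libraries each). The log2 change was 0.66 in sh718 (SE 0.078, adjusted p 3.20e-10) and reached 0.90 in sh720 (SE 0.077, adjusted p 5.66e-15), and both calls held with DESeq2 and without any 1 library. The log2 difference of sh718 against sh720 was -0.23 (SE 0.074, adjusted p 0.0127); DESeq2 missed it (adjusted p 0.0998), and it was lost without sh718 library 1 (adjusted p 0.0641) or sh720 library 3 (adjusted p 0.106). No window of 75 bases of its annotated transcript occurs exactly in a transcript of another GENCODE v29 gene. Copies outside that annotation, trimmed reads and mismatches were not examined.

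Several other core genes of the replication-dependent kind were higher in sh718 than in sh720. H2BC5 and H2BC21 encode H2B and H2AC6 encodes H2A, the proteins that pair as the outer dimers of the nucleosome, and H4C8 encodes H4. H2BC5 (GRCh38 chromosome 6, 26158146 to 26171349, plus strand) had 33, 35.3 and 46.6 CPM in the sh718 libraries, 17.5, 21.8 and 13.6 CPM in the sh720 libraries, and 20.3, 25.9 and 26.8 CPM in the shCtrl libraries. All sh718 libraries lay above all others, and sh720 overlapped shCtrl. Its log2 difference of sh718 against sh720 was 1.13 (SE 0.25, adjusted p 2.61e-04), and it held with DESeq2 (adjusted p 0.00689) and without any 1 library. Against shCtrl it was called higher in sh718 at 0.65 (SE 0.23, adjusted p 0.0358), a call missed by DESeq2 (adjusted p 0.192) and lost without sh718 library 3 or without shCtrl library 1, 2 or 3 (adjusted p up to 0.222). In sh720 against shCtrl the change was -0.48 (95% interval -1.02 to 0.060), which was not called.

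H2AC6 (GRCh38 chromosome 6, 26124145 to 26139116, plus strand) had 60.1, 66.5 and 48.8 CPM in the sh718 libraries, 48.3, 31.2 and 23.3 CPM in the sh720 libraries, and 54, 31.6 and 37 CPM in the shCtrl libraries. Each sh718 library was above every sh720 library, the lowest sh718 and the highest sh720 library by little, and the control libraries overlapped both. Its log2 difference of sh718 against sh720 was 0.78 (SE 0.20, adjusted p 0.00212), which DESeq2 also called (adjusted p 0.0358), and which was lost without sh720 library 3 (adjusted p 0.0552). Against shCtrl its change was 0.52 in sh718 (SE 0.19, adjusted p 0.0448), which DESeq2 did not call (adjusted p 0.242) and which was lost without sh718 library 1 or 2, sh720 library 2, or shCtrl library 2 or 3 (adjusted p up to 0.221). H4C8 (GRCh38 chromosome 6, 26277609 to 26285638, minus strand), with 119 counts in all, had 17.7, 22.2 and 19.1 CPM in the sh718 libraries, 9.25, 12.5 and 8.73 CPM in the sh720 libraries, and 10.1, 13.5 and 12 CPM in the shCtrl libraries. H2BC21 (GRCh38 chromosome 1, 149884459 to 149886652, minus strand), with 86 counts in all, had 13, 16.1 and 12.7 CPM in the sh718 libraries, 9.25, 5.20 and 6.79 CPM in the sh720 libraries, and 6.76, 9.02 and 11.1 CPM in the shCtrl libraries. In both genes the sh718 libraries were above all sh720 and all shCtrl libraries. The log2 difference of sh718 against sh720 was 0.96 for H4C8 (SE 0.32, adjusted p 0.0193) and 0.97 for H2BC21 (SE 0.38, adjusted p 0.0478), and DESeq2 called neither (adjusted p 0.132 and 0.219). H4C8 lost its call without sh718 library 2, sh720 library 1 or sh720 library 3 (adjusted p up to 0.0832), and H2BC21 without any sh718 library, sh720 library 2 or 3, or shCtrl library 2 (adjusted p up to 0.170).

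These 4 genes and H2BC11, another H2B gene, share a feature of their annotated 3′ ends that was noticed after their values were seen. Each has AATAAA, the letters of the poly(A) signal, in the last 50 bases of its longest GENCODE v29 transcript (GRCh38), shown here with AATAAA in capitals because it parts the tested replication-dependent genes.
H2BC5: ataattAATAAAatctgcggagaattgtaa
H2AC6: tgaggtAATAAAaggtaatgcaaagggaga
H2BC21: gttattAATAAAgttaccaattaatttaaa
H4C8: tgaaaaAATAAAtgtttaagcca
H2BC11: taaatgAATAAAgtaatattcctctgc
AATAAA stands in that place in 15 of 39 replication-dependent members, in 4 of 14 replacement members and in 62.4% of other protein-coding genes (8781 of 14063). The longest transcript of H3-3B, introduced above as polyadenylated, lacks it there. These letters alone therefore do not tell polyadenylated transcripts from others. In sh718 against sh720 all 5 tested genes with it had a positive change, 4 of them called higher, with a median log2 change of 0.96. The 6 tested replication-dependent genes without it (H1-2, H1-3, H1-4, H2AC20, H2BC4 and H4C3) all had a negative change, 4 of them called lower, with a median of -0.43, where the median of all tested genes was -0.0021 and 12.3% were called higher and 13.0% lower. The longest annotated transcripts of these 6 were 390 to 754 bases long, against 789 to 2194 bases for the 5 with AATAAA. Absence of AATAAA says only that the letters are not within the annotated ends. DESeq2 called 2 of the 5 higher (H2BC5 and H2AC6) and 0 of the 6 lower (adjusted p 0.0998 for H4C3, 0.252 for H1-4, 0.389 for H1-2 and 0.580 for H1-3). The change of H1-3 turned to 0.18 without sh720 library 1 and that of H2AC20 to 0.33 without sh718 library 2. Against shCtrl the 5 genes had a median of 0.61 in sh718, with 2 called higher, and of -0.36 in sh720, with 0 called. Summed over all 15 members with AATAAA there, the level was 149.7, 171 and 159 CPM in sh718, 109.9, 98.8 and 84.4 CPM in sh720, and 120.5, 101 and 118 CPM in shCtrl, and all sh718 libraries lay above all others. The 10 untested members among them did not share this order: their summed level was 15.3, 17.1 and 19.1 CPM in sh718, 15.4, 21.8 and 25.2 CPM in sh720, and 19.1, 12.4 and 19.4 CPM in shCtrl, a ratio of 0.825 for sh718 over sh720 from 159 counts in all. Whether the end of the transcript bears on these differences was not tested, and RNAs known to lack a poly(A) tail could not serve as a gauge, since 4 of 14 such genes were listed at all and the highest level was 7.05 CPM.

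Neighbouring H2A and H2B genes are often read from a shared promoter in opposite directions, and 2 such pairs hold tested members. H2BC21 and H2AC20 start from opposite ends of chr1:149886683-149886917, and H2BC4 and H2AC6 from opposite ends of chr6:26123927-26124171 (RefSeq starts, GRCh38.p14, plus strand shown). Both stretches are printed to show how close the paired genes lie, with the CCAAT box, the TATAAA box and the octamer ATTTGCAT in capitals, on either strand.
H2BC21 and H2AC20: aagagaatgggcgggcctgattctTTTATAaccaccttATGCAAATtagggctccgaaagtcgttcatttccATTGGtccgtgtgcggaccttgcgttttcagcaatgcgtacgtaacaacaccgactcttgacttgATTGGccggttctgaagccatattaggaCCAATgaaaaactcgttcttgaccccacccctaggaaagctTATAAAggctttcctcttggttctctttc
H2BC4 and H2AC6: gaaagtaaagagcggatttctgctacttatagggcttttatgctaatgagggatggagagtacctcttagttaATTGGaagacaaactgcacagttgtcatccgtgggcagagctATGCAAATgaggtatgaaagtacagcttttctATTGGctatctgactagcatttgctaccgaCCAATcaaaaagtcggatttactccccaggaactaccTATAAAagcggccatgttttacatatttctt
The letters ATTTGCAT occur, on either strand, in 9 of 10 promoter windows of replication-dependent H2A members and in 9 of 13 of H2B members, against 1.77% of all 35116 RefSeq windows, which reach from 250 bases before to 50 after a start. TATAAA occurs in 8 of those 10 H2A and 10 of those 13 H2B windows (11.5% of all windows), and CCAAT in all of both (34.6% of all windows). Windows of paired genes overlap, and H2BC5 and H2BC12 enter with more than a single window, so these counts are not independent. H2BC21 changed by 0.97 in sh718 against sh720, while H2AC20, across the promoter, had -0.19 (95% interval -0.66 to 0.29). H2AC6 changed by 0.78, while H2BC4 had -0.29 (95% interval -1.03 to 0.44). The difference between the genes of a pair was not tested. H2BC4 had 9.43, 11.1 and 7.42 CPM in sh718, 12.3, 12.5 and 9.70 CPM in sh720 and 9.01, 10.1 and 13.9 CPM in shCtrl, and its libraries overlapped in every comparison.

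**Figure D2:**
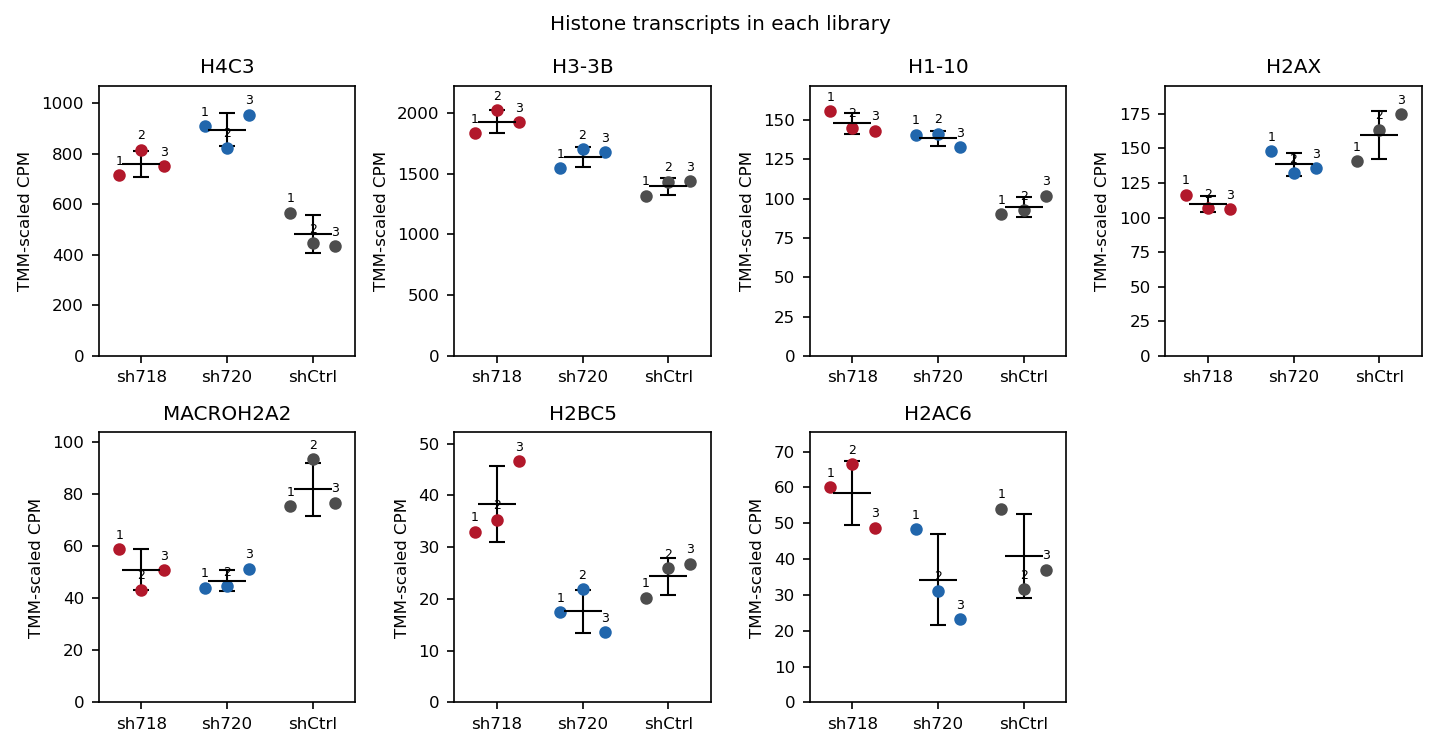
TMM-scaled CPM (y axis, from 0) of 7 histone genes in each library of sh718, sh720 and shCtrl (x axis); points are libraries with their numbers, and the black marks are the mean and SD of 3 libraries. H4C3, H3-3B and H1-10 sit above shCtrl in both hairpin lines, MACROH2A2 sits below it in both, H2AX is lowest in sh718, and H2BC5 is highest there.

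The replication-dependent linker histone genes H1-2, H1-3 and H1-4 and the H2A gene H2AC20 stood apart by how far libraries of the same line differed. H1 proteins bind the DNA between nucleosomes and compact chromatin. As a measure of spread, the variance between libraries of a line was divided by that which counting error alone would give. This ratio was 71.1 for H2AC20, 65.6 for H1-3, 62 for H1-4 and 32.4 for H1-2, against a median of 1.02 and a 90th percentile of 2.13 over all 9556 tested genes. They ranked 5, 7, 9 and 15 of those genes, and 10 of the 15 most variable genes came from the mitochondrial genome. Of the other tested members, H4C3 had a ratio of 6.12 and H3-3B 3.79, and 13 of the 22 lay at or under the median of all genes.

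**Figure D3:**
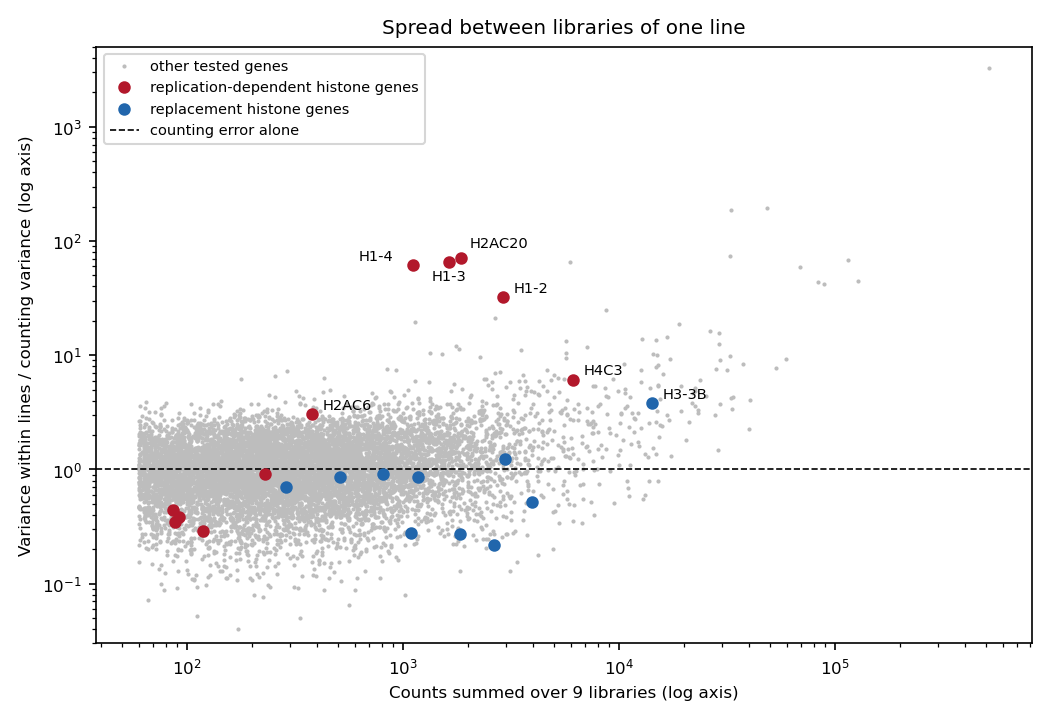
Variance between libraries of a line divided by the counting variance (y axis, log scale) against the counts summed over all 9 libraries (x axis, log scale), 1 point per gene. Of the replication-dependent histone genes in red, H2AC20, H1-3, H1-4 and H1-2 lie between 32.4 and 71.1, while the other members, red or blue, lie at or below 6.12.

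H2AC20 (GRCh38 chromosome 1, 149886975 to 149887364, plus strand) had 419.5, 47.4 and 314 CPM in the sh718 libraries, 324, 355 and 197 CPM in the sh720 libraries, and 65.3, 49.6 and 184 CPM in the shCtrl libraries. Library 2 of sh718 was below every control library, while the other sh718 libraries and all sh720 libraries were above every control. It was called higher in sh718, at a log2 change of 1.30 (SE 0.28, adjusted p 2.49e-04), as well as in sh720, at 1.48 (SE 0.27, adjusted p 4.29e-05). The call ended in both lines with DESeq2 (adjusted p 0.340 and 0.336) and with edgeR's robust estimate of the spread (0.350 and 0.407). The sh718 change was 0.78 without sh718 library 1, and without shCtrl library 3 the changes were 2.15 in sh718 and 2.34 in sh720. Of its 75-base windows 23.7% also occur in the near-identical genes HIST2H2AA3 and HIST2H2AA4, so its count may include or lack their reads.

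Of the H1 genes, H1-4 (GRCh38 chromosome 6, 26156354 to 26157107, plus strand) had 124, 21.2 and 98.6 CPM in the sh718 libraries, 421, 98.8 and 118 CPM in the sh720 libraries, and 86.7, 97 and 99.9 CPM in the shCtrl libraries. A single library, sh720 library 1, was far above the rest, and sh718 library 2 was far below them. H1-4 was called higher in sh720 at 1.16 (SE 0.25, adjusted p 9.15e-04) and lower in sh718 against sh720 at -1.42 (SE 0.26, adjusted p 2.21e-05). Without sh720 library 1 these changes were 0.19 (adjusted p 0.735) and -0.46 (adjusted p 0.170), and without sh718 library 2 the difference of sh718 against sh720 was -0.94. H1-3 (GRCh38 chromosome 6, 26234268 to 26234933, minus strand) had 169.7, 75.6 and 180.2 CPM in the sh718 libraries, 437, 116 and 131 CPM in the sh720 libraries, and 197, 109 and 272 CPM in the shCtrl libraries. Again sh720 library 1 was the highest and sh718 library 2 the lowest of the 9. Its difference of sh718 against sh720 was -0.69 (SE 0.23, adjusted p 0.0207), -0.38 without sh718 library 2 (adjusted p 0.220) and 0.18 without sh720 library 1, where the direction turned.

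H1-2 (GRCh38 chromosome 6, 26055787 to 26056428, minus strand), the most counted H1 gene, had 279, 171 and 349 CPM in the sh718 libraries, 534, 386 and 262 CPM in the sh720 libraries, and 254, 385 and 423 CPM in the shCtrl libraries. The lines overlapped in every comparison. It was called lower in sh718 against shCtrl at -0.42 (SE 0.14, adjusted p 0.0276) and against sh720 at -0.57 (SE 0.14, adjusted p 0.00163). Against shCtrl the change was -0.18 without sh718 library 2 (adjusted p 0.398), -0.27 without shCtrl library 3 (0.284), -0.37 without shCtrl library 2 (0.127) and -0.68 without sh718 library 3 (6.17e-04). Against sh720 it was -0.32 without sh718 library 2 (0.0699) and -0.28 without sh720 library 1 (0.205). DESeq2 called none of these 3 H1 genes in any comparison (adjusted p for their edgeR calls 0.252 to 0.603). The mitochondrial 16S ribosomal RNA gene MT-RNR2, the most variable gene of all, had 74758, 47691 and 76263 CPM in the sh718 libraries, 67988, 50884 and 41206 CPM in the sh720 libraries, and 49022, 61349.9 and 75182 CPM in the shCtrl libraries. Within each line the libraries had the same order for H1-2 as for MT-RNR2, which was noticed after the values were seen. H1-3, H1-4 and H2AC20 did not follow the order of MT-RNR2 in every line, and its part in these levels was not tested.

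**Figure D4:**
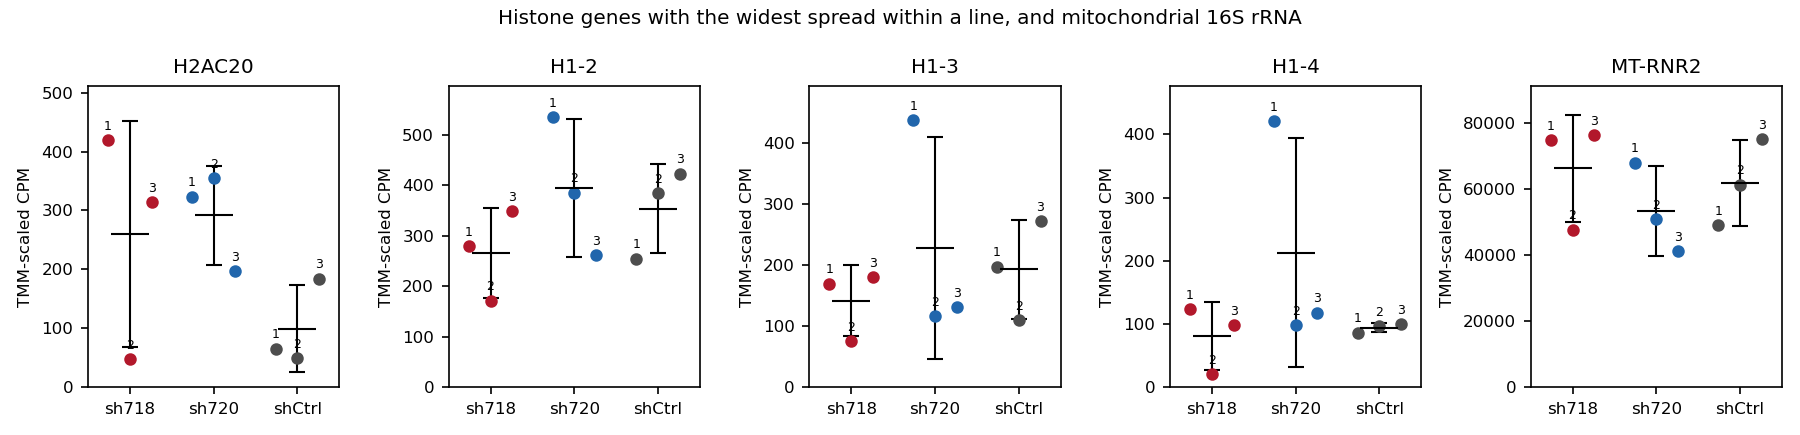
TMM-scaled CPM (y axis, from 0) of H2AC20, H1-2, H1-3, H1-4 and the mitochondrial gene MT-RNR2 in each library (points with library numbers) of sh718, sh720 and shCtrl (x axis), with the mean and SD of 3 libraries in black. Library 1 of sh720 is the highest for all 3 H1 genes, at 421 CPM for H1-4, and library 2 of sh718 is the lowest for all 3 H1 genes and H2AC20.

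The promoters of the 3 H1 genes resemble each other. They are printed because sh720 library 1 was the highest and sh718 library 2 the lowest library for all 3 genes. The order of the other libraries differed between these genes, and H2AC20 was lowest in sh718 library 2 too. Any part of the promoters in these levels was not tested. Shown are the bases just before each RefSeq start (GRCh38.p14), at chr6:26056471-26056595 on the minus strand for H1-2, chr6:26234988-26235112 on the minus strand for H1-3 and chr6:26156204-26156328 on the plus strand for H1-4, with the H1 box AAACACA and CCAAT in capitals.
H1-2: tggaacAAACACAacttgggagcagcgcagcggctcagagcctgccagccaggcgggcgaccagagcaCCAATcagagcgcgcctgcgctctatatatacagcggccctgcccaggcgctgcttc
H1-3: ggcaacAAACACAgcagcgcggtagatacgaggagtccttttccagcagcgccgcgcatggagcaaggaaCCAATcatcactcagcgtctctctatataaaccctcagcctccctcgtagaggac
H1-4: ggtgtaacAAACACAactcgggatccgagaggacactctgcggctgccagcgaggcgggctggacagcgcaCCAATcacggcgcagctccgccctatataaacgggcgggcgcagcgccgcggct
AAACACA begins 117 to 119 bases before the start in these genes and CCAAT 54 to 57 bases before it. On either strand AAACACA occurs in 3 of 3 windows of these H1 genes and in 5.64% of all RefSeq windows, and CCAAT in 3 of 3 and in 34.6%. No match of ATTTGCAT was found in these 3 windows.

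Of the linker histones of the replacement kind, H1-10 was higher in both hairpin lines. H1-10 (GRCh38 chromosome 3, 129314771 to 129316277, minus strand) encodes H1.X, a linker histone made in most tissues. It had 156, 145 and 143 CPM in the sh718 libraries, 141, 141 and 133 CPM in the sh720 libraries, and 90.1, 92.5 and 102 CPM in the shCtrl libraries. Every hairpin library was above every control library. It rose by 0.63 in sh718 (SE 0.12, adjusted p 4.40e-05) and by 0.54 in sh720 (SE 0.12, adjusted p 0.00132), both also called by DESeq2 and without any 1 library. The log2 difference of sh718 against sh720 was 0.095 (95% interval -0.13 to 0.32). Of its 75-base windows 14% occur in the antisense gene H1FX-AS1, which had 0 counts in sh718, 2 in sh720 and 1 in shCtrl, and no source states whether strand was used in counting.

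Of the H3.3 genes, H3-3B rose in both lines. H3-3A and H3-3B encode the same H3.3 protein, which replaces H3 outside S phase and marks active genes. H3-3B (GRCh38 chromosome 17, 75776434 to 75785893, minus strand) had 1834, 2020.3 and 1922 CPM in the sh718 libraries, 1542, 1698 and 1673 CPM in the sh720 libraries, and 1316, 1432 and 1436 CPM in the shCtrl libraries. The 3 lines did not overlap, with sh718 on top and shCtrl lowest. Its log2 change was 0.47 in sh718 (SE 0.061, adjusted p 9.38e-09), 0.23 in sh720 (SE 0.061, adjusted p 0.00938) and 0.23 in sh718 against sh720 (SE 0.061, adjusted p 0.00230). DESeq2 called all of these, and the sh720 call was lost without sh720 library 2 (adjusted p 0.0797) or shCtrl library 1 (adjusted p 0.107). The 10 tested genes nearest to H3-3B had a median of 0.27 in sh718 against sh720, with 2 called higher and 5 above H3-3B. Against shCtrl their medians were 0.045 in sh718 and -0.035 in sh720. Whether H3-3B changed apart from its neighbours was not tested.

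H3-3A (GRCh38 chromosome 1, 226061851 to 226072001, plus strand) had 237, 243 and 243 CPM in the sh718 libraries, 200.3, 194 and 208 CPM in the sh720 libraries, and 215, 195 and 198 CPM in the shCtrl libraries. Its sh718 libraries were above all others. It was called higher in sh718 against sh720 at 0.26 (SE 0.096, adjusted p 0.0371); DESeq2 did not call it (adjusted p 0.131), and the call was lost without any sh718 library or sh720 library 1 or 2 (adjusted p up to 0.129). In sh718 against shCtrl it had 0.25 (adjusted p 0.0547), short of a call. The 10 tested genes nearest to it had a median of -0.87 in sh718 against sh720, 6 of them called lower, so H3-3A stood above every neighbour.

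Among H2A variants, H2AX fell in sh718. H2AX, whose protein is phosphorylated around DNA breaks, has a transcript with the stem-loop printed above and 1044 further bases after it. H2AX (GRCh38 chromosome 11, 119093854 to 119095467, minus strand) had 117, 107 and 106 CPM in the sh718 libraries, 148, 132 and 136 CPM in the sh720 libraries, and 141, 164 and 175 CPM in the shCtrl libraries. All sh718 libraries were below all others, and sh720 overlapped shCtrl. The log2 change was -0.55 in sh718 against shCtrl (SE 0.12, adjusted p 3.26e-04), which DESeq2 also called (adjusted p 0.00590). Against sh720 the difference was -0.34 (SE 0.12, adjusted p 0.0320), missed by DESeq2 (adjusted p 0.146) and lost without sh718 library 2 or 3 or sh720 library 1 or 3 (adjusted p up to 0.125). In sh720 it was -0.21 (95% interval -0.44 to 0.016), and the 10 nearest tested genes had a median of -0.36 in sh718 against shCtrl.

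The H2A.Z genes H2AZ1 and H2AZ2, whose proteins flank the start sites of active genes, were called in no comparison. H2AZ1 had 511, 498 and 469 CPM in the sh718 libraries, 435, 462 and 431 CPM in the sh720 libraries, and 445, 445 and 434 CPM in the shCtrl libraries. The sh718 libraries were above all others, by a log2 change of 0.16 against shCtrl (95% interval 0.0083 to 0.31, adjusted p 0.132). H2AZ2 had 375, 359 and 357 CPM in the sh718 libraries, 354, 296 and 299 CPM in the sh720 libraries, and 355, 365 and 365 CPM in the shCtrl libraries. The sh720 libraries were below all others, the nearest by less than 1 CPM, and its change there was -0.19 (95% interval -0.36 to -0.026, adjusted p 0.175). H2AJ, an H2A variant known to accumulate in senescent cells, lay at 0.21 in sh718 and 0.23 in sh720, with 95% intervals of -0.065 to 0.48 and -0.044 to 0.49. H2AW lay at 0.24 and -0.0071, with intervals of -0.18 to 0.67 and -0.44 to 0.43, so changes of that size cannot be set apart from none.

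The macroH2A genes encode H2A variants with a large additional domain, found on inactive chromatin, and they differed. MACROH2A2 (GRCh38 chromosome 10, 70052796 to 70112280, plus strand) had 58.9, 43.3 and 50.9 CPM in the sh718 libraries, 44.2, 44.7 and 51.4 CPM in the sh720 libraries, and 75.4, 93.6 and 76.8 CPM in the shCtrl libraries. Every hairpin library was below every control library, and sh718 overlapped sh720. It fell by a log2 change of -0.69 in sh718 (SE 0.16, adjusted p 6.05e-04) and by -0.80 in sh720 (SE 0.16, adjusted p 1.58e-04), and both calls held with DESeq2 (adjusted p 0.0196 and 0.00522) and without any 1 library. Genes around it were lower too: of the 10 nearest tested genes, within 746604 bases, 5 were called lower in sh718 (median -0.53) and 8 in sh720 (median -0.76), among them SAR1A, PPA1 and TSPAN15 in both. Whether MACROH2A2 changed apart from its neighbours was not tested. MACROH2A1, which is counted more, lay at 0.060 in sh718, with a 95% interval of -0.11 to 0.23, and at -0.032 in sh720, with one of -0.20 to 0.14, and its libraries ran from 292 to 326 CPM over all lines. As much as 27.0% of its 75-base windows occur in overlapping genes.

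Summed over the 41 replication-dependent members, the level was 1899.6, 1338 and 1885 CPM in sh718, 2786, 1929.7 and 1780.1 CPM in sh720, and 1321, 1221 and 1580.2 CPM in shCtrl. The sums overlapped between lines for sh718 against shCtrl and not for sh720 against shCtrl, and they lay at 1708 ± 320.1, 2165 ± 543 and 1374 ± 185 CPM in sh718, sh720 and shCtrl. Without H1-2, H1-3, H1-4 and H2AC20, left out after their spread was seen, the sums were 907, 1023 and 944 CPM in sh718, 1071, 974 and 1072 CPM in sh720, and 717, 581 and 601 CPM in shCtrl, so that both hairpin lines lay above every control library, with H4C3 holding most of the sum. Without H4C3 alone, the sums of the other 40 members were 1184, 523 and 1136 CPM in sh718, 1879, 1106 and 827 CPM in sh720, and 754, 775 and 1147 CPM in shCtrl, which overlapped in every comparison. This sum keeps H1-2, H1-3, H1-4 and H2AC20, and a sum without both them and H4C3 was not made. The 14 replacement members summed to 3799, 3972 and 3853 CPM in sh718, 3640, 3620.3 and 3602 CPM in sh720, and 3273, 3413 and 3455 CPM in shCtrl. These sums did not overlap between lines. As shares of the raw library totals, without TMM scaling, they were 0.365%, 0.386% and 0.368% in sh718 and 0.360%, 0.366% and 0.375% in sh720, which overlapped, and the log2 ratio of sh718 against sh720 was 0.024 in place of 0.0976. The sums are led by H3-3B: without it the log2 ratios of the sums turned to -0.027 in sh718 against shCtrl, -0.0033 in sh720 against shCtrl and -0.023 in sh718 against sh720. Of the 11 tested replacement members, 8 had a positive change in sh718 against shCtrl and 3 a negative one, with a median of 0.16. In sh720 against shCtrl 5 were positive and 6 negative, with a median of -0.0071. In sh718 against sh720 8 were positive and 3 negative, with a median of 0.11.

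Of 19 genes that process and transcribe histone RNA 17 were tested. In sh718 1 was called higher and 0 lower, where 20.4% of all tested genes were called, and in sh720 0 were higher and 1 lower, where 6.85% of all tested genes were called. UPF1, a helicase needed for the decay of histone messenger RNA, rose by 0.59 (SE 0.14, adjusted p 9.23e-04) in sh718. SRRT, a partner of the cap-binding complex, changed by -0.64 (SE 0.15, adjusted p 0.00336) in sh720. SLBP, which binds the stem-loop, lay at -0.20 in sh718 and -0.28 in sh720, and NPAT, the activator of histone transcription in S phase, at -0.091 and 0.13, none of them called. The median of the list was 0.05 in sh718 and 0.13 in sh720, where that of all tested genes was 0.0024 and 0.0015.

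Histone chaperones moved both ways in sh718. All 29 listed genes were tested, and 5 were called higher and 6 lower in sh718 (median -0.05), while 2 were called higher and 0 lower in sh720 (median 0.12). Of all tested genes 9.56% were called higher and 10.8% lower in sh718, and 3.43% and 3.42% in sh720. NASP, which holds soluble H3 and H4, rose by 0.43 (SE 0.10, adjusted p 0.00113) in sh718, RBBP4 by 0.64 (SE 0.17, adjusted p 0.00420), and CHAF1A, a subunit of the assembly factor CAF-1, by 0.61 (SE 0.20, adjusted p 0.0178). ASF1A, which hands H3 and H4 to assembly factors, changed by -1.25 (SE 0.20, adjusted p 1.37e-06), the nucleolar chaperone gene NPM1 by -0.37 (SE 0.066, adjusted p 1.41e-05) and SUPT16H of the FACT complex by -0.41 (SE 0.12, adjusted p 0.00972). ATRX, which works with DAXX to deposit H3.3, was higher in both lines, at 0.25 (SE 0.089, adjusted p 0.0363) in sh718 and at 0.33 (SE 0.088, adjusted p 0.00831) in sh720, and HJURP, the chaperone of the centromere histone CENP-A, rose by 0.57 (SE 0.16, adjusted p 0.0169) in sh720. In sh718 against sh720, 2 chaperone genes were called higher and 8 lower, with ASF1A at -1.17 and SUPT16H at -0.57 among the lower. There 12.3% of all tested genes were called higher and 13.0% lower.

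Genes of S phase and DNA replication, with which replication-dependent histone genes are normally read, were mixed in sh718 against shCtrl as well. Of 20 listed, 16 were tested, and 3 were called higher and 3 lower in sh718 (median 0.14), while 1 was higher and 0 lower in sh720 (median 0.15). The shares of all tested genes called were 20.4% in sh718 and 6.85% in sh720. RRM2, a subunit of ribonucleotide reductase, rose in both lines, by 0.60 (SE 0.090, adjusted p 2.84e-07) in sh718 and by 0.50 (SE 0.090, adjusted p 2.87e-05) in sh720. PCNA, the sliding clamp of DNA polymerase, changed by -0.24 (SE 0.085, adjusted p 0.0343) in sh718, and RRM1, the partner of RRM2, by -0.34 (SE 0.13, adjusted p 0.0419). In sh718 against sh720, 0 of the list were called higher and 3 lower (median 0.027), where 12.3% and 13.0% of all tested genes were called. The 3 were PCNA at -0.41 (adjusted p 8.62e-05), RRM1 at -0.50 (0.00136) and PRIM1 at -0.67 (0.00296). Of 10 tested relatives of histones and high mobility group genes, 2 were called higher and 2 lower in sh718, and 1 higher and 1 lower in sh720. The same shares of all tested genes, 20.4% and 6.85%, stand beside these counts. HMGB2, a DNA-bending chromatin protein gene, changed by -0.68 (SE 0.11, adjusted p 2.97e-06) in sh718 and 0.32 (SE 0.10, adjusted p 0.0397) in sh720, HMGA1 by 0.37 (SE 0.059, adjusted p 7.86e-07) and -0.31 (SE 0.060, adjusted p 8.84e-05), and CENPA, which encodes the centromere form of H3, by -0.76 (SE 0.20, adjusted p 0.00343) in sh718.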

How the data were processed

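RNA from 3 PC3-Luc lines was sequenced in 3 libraries each, named by line and number in the count table. The authors deposited raw counts per gene with no normalization. Trim Galore and GRCh38 appear in them per the submitters' processing notes, while aligner, counter, strand setting and annotation release were not given in the sources used. All 9 columns of counts were used and 0 were set aside. No source says whether a line's libraries were separate cultures, so p-values reflect only how far these libraries differ, which may be technical spread.

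A gene entered the test where its summed count per line had a mean of 20 or more across lines, which kept 9556 genes. One model of the lines was fitted with the glmQLFit and glmQLFTest functions of edgeR 4.0.16 (R 4.3.3) after TMM scaling. Depth was 883663 to 1108960 counts per library, and a gene with few counts carries a wide interval. CPM are TMM-scaled and computed here. Over all tested genes the median log2 change was at most 0.00237 in size. Alternatives were DESeq2 1.42.0, its size factors, no count minimum, only the lines compared, library number as a block, removal of a GC and length trend, each library left out, and, chosen after seeing the data, a robust spread estimate (limma 3.58.1) and counts without the 4 most variable members. The code was tested on simulated data. Python 3.11.15, pandas 2.3.3 and matplotlib 3.10.9 made summaries and figures.

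Named genes were all members called in any comparison, the 12 most counted, the highest of each family, and those next to the count minimum, and of each gene list at most 4 called genes per direction and comparison. Members and lists were chosen with earlier results of these data known. Transcripts, positions and 75-base windows came from GENCODE v29 (53 of 55 members found) and promoters from RefSeq GRCh38.p14 (47 members, in 54 windows); motif matches describe letters only. Sums and lists were described without a test. Results of 1 member, which counts and sums include, are not reported here.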

Additional observations from a re-analysis of the deposited data

Results flagged for a closer look

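The change against shCtrl differed between the hairpin lines for 11 members reported by name, by the edgeR contrast of sh718 with sh720, which tests that difference itself and called 25.3% of all tested genes. The difference of the log2 changes, sh718 minus sh720, was -1.42 for H1-4, -0.69 for H1-3 and -0.57 for H1-2. Without sh720 library 1 it was -0.46 for H1-4, 0.18 for H1-3 and -0.28 for H1-2, and no longer called. It was -0.34 for H2AX and -0.23 for H4C3. Positive differences were 1.13 for H2BC5, 0.97 for H2BC21, 0.96 for H4C8, 0.78 for H2AC6, 0.26 for H3-3A and 0.23 for H3-3B. With DESeq2 the differences of H2BC5, H2AC6 and H3-3B kept an adjusted p under 0.05.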

How the results depend on the processing

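With DESeq2 in place of edgeR the members called higher numbered 3 in sh718 against shCtrl, 3 in sh720 against shCtrl and 3 in sh718 against sh720, and 1 was called lower in sh718 against sh720. With the robust spread, 3 were called higher in sh720 and 3 lower in sh718 against sh720, and without H2AC20, H1-2, H1-3 and H1-4 again 3 and 3. Leaving out 1 library at a time gave 4 to 6 members higher and 3 to 5 lower in sh718 against shCtrl, 4 to 5 and 1 to 2 in sh720 against shCtrl, and 3 to 6 and 2 to 6 in sh718 against sh720. It moved the log2 ratio of the replication-dependent sums to 0.22 to 0.47, 0.44 to 0.76 and -0.46 to -0.14 in those comparisons, and that of the replacement sums to 0.17 to 0.21, 0.076 to 0.12 and 0.080 to 0.11. Per raw library total, the replacement sums gave 0.14 in sh720 against shCtrl and 0.024 in sh718 against sh720, and without H3-3B they turned to -0.027, -0.0033 and -0.023. Same-numbered libraries did not deviate together (r of -0.0116 to 0.0235 between lines), and with library number as a block the calls were 7 higher and 5 lower, 5 and 1, and 5 and 6. For the libraries left out and for the block, the shares of all tested genes called were not counted. The members' counts in those settings therefore cannot be set against a background.

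The counts that follow leave out the tested members H2AJ, H2AW and H2BC4, which were called in no comparison. Over all alternatives and the other tested members, called changes kept direction and call 379 times, lost the call 68 times and turned 1 time. That one was H1-3 in sh718 against sh720, with -1.01 to 0.18 over the libraries left out. Uncalled changes turned 16 times and became calls in the same direction 11 times. Over the libraries left out, their ranges in sh720 against shCtrl were -0.15 to 0.37 for H1-2, -0.67 to 0.57 for H1-3, -0.028 to 0.022 for H2AZ1 and -0.038 to 0.029 for H3-3A, in sh718 against shCtrl -0.68 to 0.22 for H1-4 and -0.017 to 0.018 for H2AZ2, and in sh718 against sh720 -0.70 to 0.33 for H2AC20. Without the count minimum H2AZ1 lay at -0.0030 in sh720 and H2AZ2 at -3.2e-05 in sh718. Among these, H1-3 at -0.67 without sh720 library 1 (adjusted p 0.0405) and H2AC20 at -0.70 without sh718 library 1 (adjusted p 0.0228) passed the threshold. The causes were not tested. Of the 41 replication-dependent members, 30 had too few counts to test. The part of sequencing depth or of a missing poly(A) tail in this was not tested.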
